A study of Mus musculus with 2 samples.

Results

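The genes described here are 8 members of the insulin-like growth factor (IGF) system in the embryonic mouse heart: the ligand Igf1, the receptors Igf1r and Igf2r, and the binding proteins Igfbp2, Igfbp3, Igfbp4, Igfbp5 and Igfbp7. They were matched by gene symbol, and all 8 were found among the 31053 genes of each table. Hearts of E12.5 mouse embryos were digested with TrypLE, a trypsin substitute, and single cells were profiled by droplet RNA sequencing on the 10X Genomics Chromium platform. The mutant library came from hearts of the genotype Tbx18-Cre; Prmt1 fl/fl;YFP/+, with floxed Prmt1 alleles on both chromosomes. The control library came from hearts of the genotype Tbx18-Cre; YFP/+. Both genotypes therefore carried the Cre driver, which acts where Tbx18 is or has been expressed, and the YFP reporter, and they differed in the floxed Prmt1 alleles. Prmt1 encodes a protein arginine methyltransferase, and the title of the series describes its loss as restricted to the epicardium. The sources used here do not say how many embryos went into a library or whether cells were sorted for YFP. Each genotype is represented by 1 library. Differences between genotypes therefore have no replicate check and no test, and every interval below covers counting error only.

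IGF1 is a secreted peptide that acts through IGF1R, a receptor tyrosine kinase that signals to the PI3K-AKT and MAPK pathways and drives growth of the embryo. IGF2R, also known as the cation-independent mannose 6-phosphate receptor, has no kinase domain: it sorts lysosomal enzymes and takes IGF2 to the lysosome, and in the mouse it is an imprinted gene expressed mainly from the maternal allele. The IGF binding proteins are secreted carriers that hold the ligands in the fluid around cells, where they can either withhold them or deliver them to the receptor. In the embryonic heart, IGF2 from the epicardium and endocardium is known as a growth signal to the ventricular wall.

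Cell types were assigned per cell from marker genes that do not include any of the 8. After the same minimums of 1000 unique molecular identifiers (UMIs) and 500 genes in both libraries, 4640 mutant and 4100 control cells were kept, and 8 barcodes were shared. The deposited matrices held 48527471 UMIs (mutant) and 49323576 UMIs (control) in all. Ventricular cardiomyocytes numbered 1205 in the mutant and 1540 in the control, and atrial cardiomyocytes 253 and 382. Epicardial cells, gated by keratins and uroplakins, numbered 331 in the mutant and 191 in the control, mesenchymal cells 1237 and 741, endothelial cells 315 and 227, and macrophages 78 and 74. All 8 keratin and uroplakin markers were detected in the epicardial gate, all 15 markers of its class in each of the mesenchymal and endothelial gates, and all 13 in the macrophage gate, in both libraries. The gates were set on these same lists, so this detection is no independent check of the cell type names. Levels are CPM (counts per 1000000), the UMIs of a gene summed over the cells of a type relative to all UMIs of that type, with exact 95% Poisson intervals in parentheses. Prmt1 itself read 394 CPM in mutant epicardial cells and 477 in control epicardial cells, and it was higher in the mutant in the other 5 types, for example 687 and 622 in mesenchymal cells and 786 and 657 in ventricular cells. Reads of this assay come from the 3′ end of transcripts, so this level does not check a deletion of internal exons. Red cells served as the background type. In 135 mutant and 112 control red cells no member exceeded 7 UMIs, although haemoglobin took 82.6% of red cell UMIs in the mutant and 84.7% in the control. Barcodes under 100 UMIs, which hold free RNA, were listed for the control alone, and there the members read between 3.85 CPM (Igfbp3) and 92.9 CPM (Igfbp7).

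Each member had its own distribution over the 6 cell types, and these distributions were nearly alike in both genotypes. The highest cell type was the same in both libraries for 7 of the 8 members. Igf1 and Igfbp7 were highest in mesenchymal cells, Igf1r, Igfbp3 and Igfbp5 in epicardial cells, Igfbp4 in endothelial cells and Igfbp2 in atrial cardiomyocytes. The exception was Igf2r, highest in endothelial cells of the mutant and in epicardial cells of the control. In the control these types overlap, at 114 CPM (91.5 to 140.5) in epicardial and 92.2 (75.5 to 112) in endothelial cells. With equal weight per cell these control levels were 64.55 and 105 CPM, and all 8 members then had the same highest type in both libraries. Joint clusters gave 90.7 and 134 CPM in the control. Among 6044 genes that mark no cell type, the highest cell type was the same in both libraries for 64.5%. A lead of at least 2-fold over the next cell type in both libraries was met by Igfbp3 alone of the 8, in epicardial cells, against 10.5% of the 6044 genes in any cell type and 2.04% in epicardial cells. Macrophages, the phagocytes of the tissue, had 0 UMIs of Igf2r, Igfbp2 and Igfbp3 in both libraries, which allows up to 7.54 CPM in the mutant and 11.7 in the control.

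**Figure D1:**
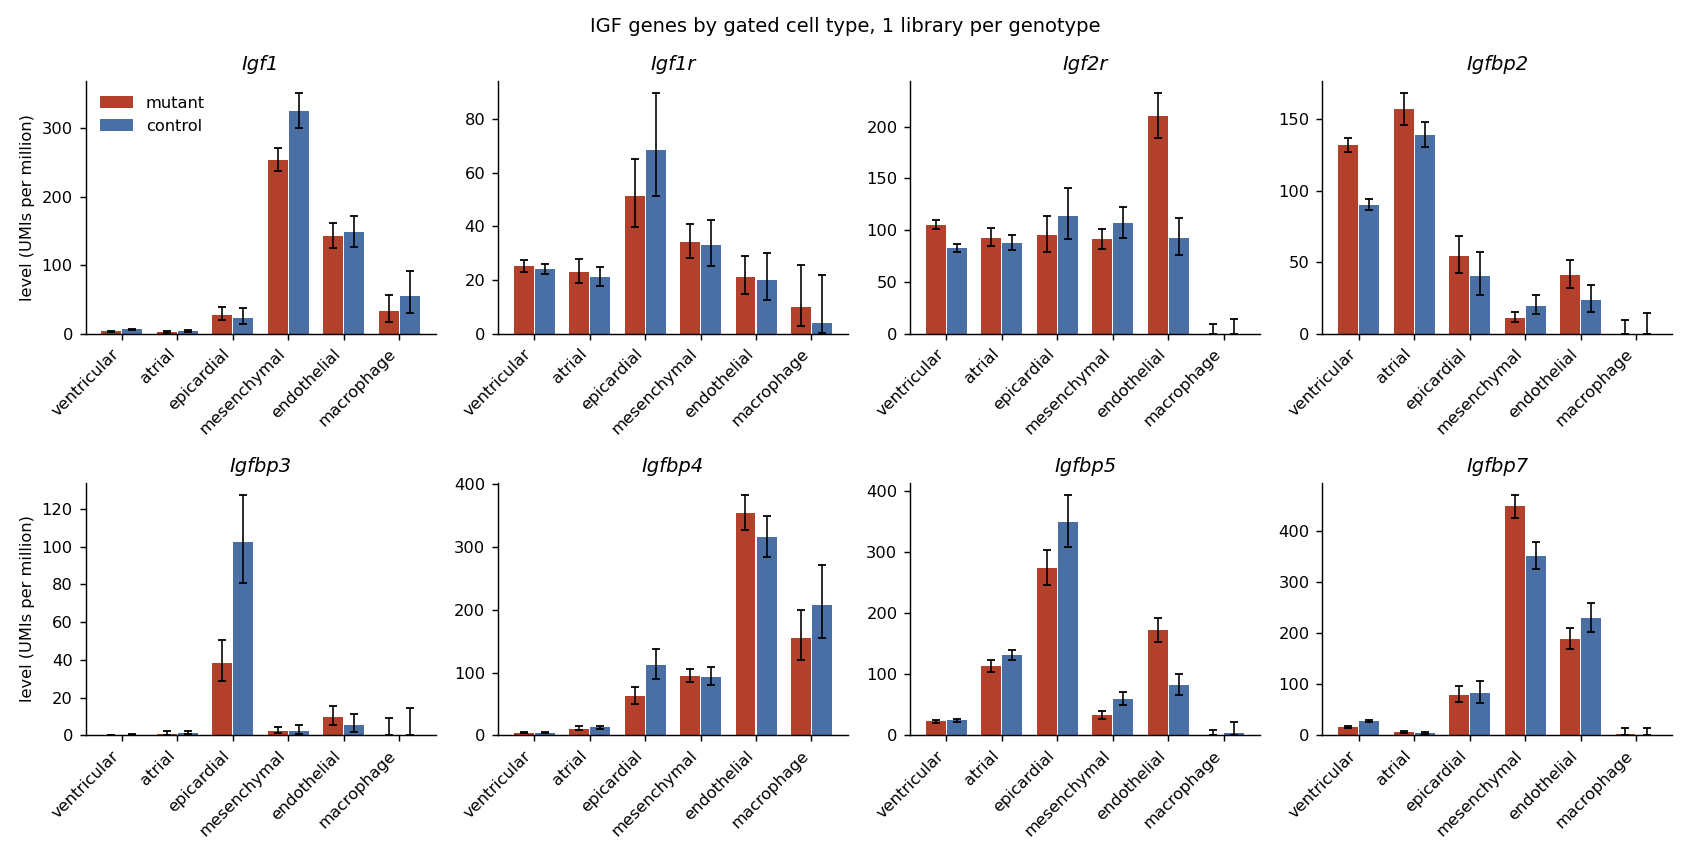
Level of each IGF gene (CPM, linear axis from 0) in 6 gated cell types, with mutant bars left of control bars. Each bar is 1 library and its line is the exact 95% Poisson interval, which covers counting error only; Igf1 and Igfbp7 peak in mesenchymal cells, Igfbp3 in epicardial cells and Igfbp4 in endothelial cells in both libraries.

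Igf1, the ligand, was a product of the non-muscle cells. In mesenchymal cells it stood at 254 CPM in the mutant (237 to 271) and 325 in the control (300 to 351). Endothelial cells followed, with 143 CPM in the mutant and 148 in the control. Macrophages held 32.7 in the mutant and 54.7 in the control, on 13 and 14 UMIs, and epicardial cells 27.9 and 23.3. The intervals of these last types overlap, and 1 cell held 40.5% of the mutant epicardial UMIs. Cardiomyocytes were at the bottom of the order: ventricular cells had 3.10 CPM in the mutant and 6.19 in the control, and atrial cells 1.83 and 3.30. A UMI of Igf1 was seen in 37.9% of mutant and 35.5% of control mesenchymal cells, with median depths of 2224 and 1873 UMIs. In red cells, which are far deeper (medians of 16380 and 17700 UMIs), the share was 0.741% in the mutant, and it was 0 of 112 cells in the control, which allows a share of up to 2.68%.

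The mesenchymal class was not uniform for Igf1. Tcf21 is used as a marker of mesenchymal cells that derive from the epicardium, whereas Cthrc1, Msx1 and Sox9 mark cells of the valve cushions. Tcf21 is not confined to derived cells: the gated epicardium read 526.5 CPM of it in the mutant and 398 in the control. The descent of the Tcf21 cells was not tested. In the mutant, Igf1 read 50.6 CPM in 275 Tcf21 cells and 357 in 291 cells with cushion markers. In the control, it read 69.4 in 180 Tcf21 cells and 349 in 183 cushion cells. The intervals do not overlap in either library, and the log2 ratio of Tcf21 over cushion cells was -2.60 in the mutant and -2.18 in the control. Ratios here and below are log2 of levels to which 10 CPM were added, which pulls the ratio of low genes towards 0.

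Igf2r, Igfbp7 and Igfbp2 shared this direction, and none of the 8 went the other way past 1.5-fold in both libraries. Igf2r read 25.3 CPM in Tcf21 cells and 77.8 in cushion cells of the mutant, and 23.1 and 136.5 in those of the control. The Tcf21 levels rest on 17 UMIs in the mutant and 9 in the control. In the cushion cells, 5 cells held 51.8% of the mutant and 52.5% of the control UMIs. With equal weight per cell, Igf2r in Tcf21 and cushion cells was 27.6 and 47.7 CPM in the mutant, and 26.3 and 74.7 in the control. The shares of cells with a UMI were 6.18% and 9.28% in the mutant, with overlapping intervals, and 3.89% and 13.1% in the control. For Igfbp7 the levels were 181.5 in Tcf21 cells and 589 in cushion cells of the mutant, against 193 and 507 in the control. Igfbp2 was low throughout, with 0 UMIs in mutant Tcf21 cells and 15 in mutant cushion cells, and 2 and 12 UMIs in those of the control. It reached 20 CPM through the cushion cells alone, and 1 cell held 75.0% of the 12 control UMIs; with equal weight per cell the control levels were 4.88 CPM in Tcf21 and 10.0 in cushion cells. Igfbp4 and Igfbp5 differed by less than 1.5-fold between the subsets in both libraries, and Igf1r passed 1.5-fold lower in the control alone. Of 4360 genes tested, 11.6% were past 1.5-fold lower in Tcf21 cells in both libraries and 3.07% were higher. Igf1, Igf2r and Igfbp7, the lower members that reached 20 CPM in both subsets, stand beside that background.

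**Figure D2:**
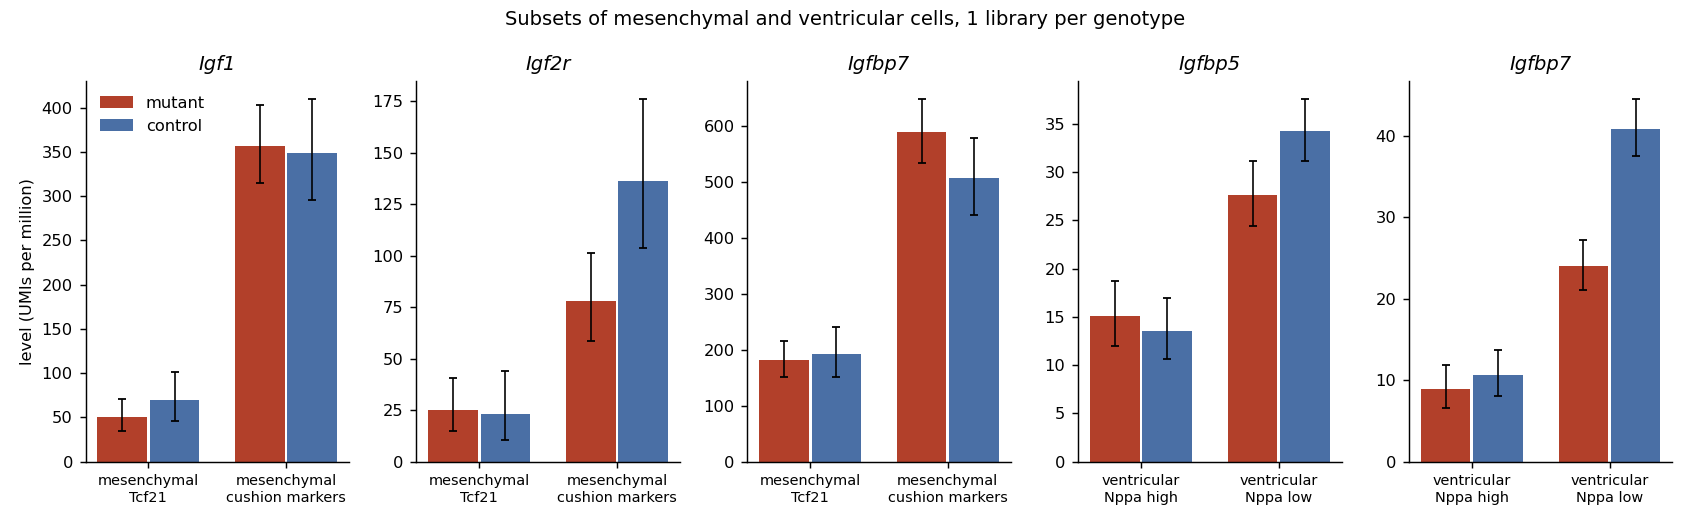
Levels (CPM, linear axes from 0) of Igf1, Igf2r and Igfbp7 in mesenchymal cells with Tcf21 or with cushion markers, and of Igfbp5 and Igfbp7 in ventricular cells with high or low Nppa. Mutant bars stand left of control bars, lines are exact 95% Poisson intervals, and in both libraries each gene is lower in the left-hand subset.

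Igf1r, the signalling receptor, was read in every cell type and was highest in the epicardium. Epicardial cells had 51.3 CPM in the mutant (39.8 to 65.0) and 68.7 in the control (51.4 to 89.8). Mesenchymal cells had 34.2 in the mutant and 33.1 in the control, ventricular cells 25.3 and 24.1, atrial cells 23.0 and 21.1, and endothelial cells 21.1 and 20.01. The epicardial interval overlaps the mesenchymal one in the mutant (28.4 to 40.9) but not in the control (25.4 to 42.3). The intervals of ventricular, atrial and endothelial cells overlap in both libraries, and those of mesenchymal and ventricular cells overlap in the control but not in the mutant. Macrophages had 4 UMIs in the mutant and 1 in the control. In none of the 5 cell types in which it could be compared did Igf1r pass 1.5-fold between genotypes. Its log2 ratios of mutant over control lay between -0.36 in epicardial cells and 0.09 in atrial cells, and all 5 intervals held 0. The epicardial interval runs from -0.82 to 0.11 and so includes a level 1.5-fold lower in the mutant.

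Igf2r was read in every type except macrophages. Ventricular cells had 105 CPM in the mutant (101 to 110) and 82.5 in the control (78.9 to 86.3), atrial cells 92.7 and 87.9, epicardial cells 95.1 and 114, and mesenchymal cells 91.0 and 107. Endothelial cells stood apart in the mutant, with 210 CPM (189 to 232), against 92.2 in the control (75.5 to 112). Within the endothelium Igf2r was higher in cells with a UMI of Npr3, a marker of endocardium. Mutant cells with Npr3 had 385 CPM and those without had 123, and in the control the levels were 160 and 64.7. The log2 ratio of cells with over cells without Npr3 was 1.57 in the mutant and 1.19 in the control. Igf2r was the single one of 7 members past 1.5-fold in the same direction in both libraries, and 4.63% of 4582 genes were higher and 1.24% lower. The cells with Npr3 were few, 63 in the mutant and 35 in the control, and 5 cells held 73.7% and 77.4% of their Igf2r UMIs. Whether counting used the strand of reads is not given in the sources used here. Igf2r (chromosome 17, 12682406 to 12769664 on GRCm38, minus strand) overlaps the antisense RNA Airn over 28354 bases, and if strand was not used, reads of the pair cannot be told apart there. Airn had 31.9 CPM in mutant and 37.4 in control endothelial cells.

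The binding proteins were not all highest in the same cell type, although Igfbp3 and Igfbp5 shared the epicardium. The stretches of DNA upstream of their start sites also differ. A link between these stretches and the levels was not tested. The 100 bases upstream of the first listed RefSeq start (GRCm38.p6, 5′ to 3′ on the strand of the gene) are shown for the 5 binding proteins, because 4 of them carry the differences between genotypes described below and the pair Igfbp2 and Igfbp5 are neighbours. Igfbp2 (chromosome 1, 72824503 to 72852474, plus strand) and Igfbp5 (chromosome 1, 72857932 to 72874884, minus strand) face each other tail to tail with 5457 bases between their ends. Capitals mark matches on either strand: TATAAA is the usual form of the TATA box, whereas TATATA and likewise TATTTA are variants of it that can overlap it, and GGGCGG stands for the core of the GC box.
Igfbp2, chr1:72824380-72824479, plus strand: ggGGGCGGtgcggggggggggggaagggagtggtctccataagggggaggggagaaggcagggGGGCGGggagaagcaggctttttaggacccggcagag
Igfbp3, chr11:7213924-7214023, minus strand: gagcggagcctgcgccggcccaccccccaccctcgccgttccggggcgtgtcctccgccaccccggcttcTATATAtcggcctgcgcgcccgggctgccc
Igfbp4, chr11:99041144-99041243, plus strand: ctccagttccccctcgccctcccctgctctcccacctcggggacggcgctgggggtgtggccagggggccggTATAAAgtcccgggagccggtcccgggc
Igfbp5, chr1:72874866-72874965, minus strand: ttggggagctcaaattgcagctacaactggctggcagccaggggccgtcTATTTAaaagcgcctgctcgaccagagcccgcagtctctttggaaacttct
Igfbp7, chr5:77408046-77408145, minus strand: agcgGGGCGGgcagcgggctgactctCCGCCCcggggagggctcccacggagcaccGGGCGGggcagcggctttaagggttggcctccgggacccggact
Igfbp3, Igfbp4 and Igfbp5 each hold 1 match of the TATA type, whose first base lies at -30, -28 and -51 from the RefSeq start, and no GGGCGG. The gene coordinates given above put the 5′ end of Igfbp5 at 72874884, upstream of its RefSeq start. Part of the Igfbp5 stretch thus lies inside the gene by those coordinates, and from that end its match lies nearer than -51. Igfbp2 holds GGGCGG 2 times and Igfbp7 3 times, and neither holds a match of the TATA type. RefSeq lists a further start of Igfbp2, whose upstream 100 bases (chr1:72825287-72825386) hold neither kind of match. Among 32851 mouse stretches of the same length, 10.6% hold at least 1 of the TATA type letters and 24.7% hold GGGCGG. A match describes the letters and shows no binding.

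Igfbp2, a carrier of IGF2 and IGF1, was highest in cardiomyocytes. Atrial cells had 157 CPM in the mutant (146 to 168) and 139 in the control (130 to 148). Ventricular cells had 132 in the mutant (127 to 137) and 90.4 in the control (86.6 to 94.3). It was seen in 68.0% of mutant and 62.0% of control atrial cells, with median depths of 13010 and 13040 UMIs. Among red cells the share was 0 of 135 in the mutant, which allows up to 2.22%, and 0.893% in the control. Epicardial cells had 54.3 CPM in the mutant and 40.2 in the control, endothelial cells 41.0 and 23.5, and mesenchymal cells 11.1 and 19.4. Of the 37 control mesenchymal UMIs, 37.8% came from 1 cell.

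Igfbp3, the main IGF carrier of adult serum, was an epicardial transcript here. Epicardial cells had 38.5 CPM in the mutant (28.7 to 50.6) and 102 in the control (81.0 to 128). Endothelial cells were next, with 9.69 in the mutant and 5.22 in the control, and mesenchymal cells had 2.28 and 2.10. Ventricular cells had 1 UMI of Igfbp3 among 20346510 in the mutant and 7 among 23580486 in the control. Even in the epicardium it was seen in a minority of cells, 10.6% in the mutant and 15.7% in the control, at median depths of 2816 and 2552 UMIs. No red cell of either library held a UMI of it, which allows shares of up to 2.22% in the mutant and 2.68% in the control.

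Igfbp4, which mostly inhibits IGF action until the protease PAPP-A cleaves it, was highest in endothelial cells, with 355 CPM in the mutant (327 to 384) and 316 in the control (284 to 350). Macrophages came second, with 156 in the mutant and 207 in the control, on 62 and 53 UMIs. Igfbp4 was the single member that met the minimums for a comparison in this cell type. It was seen in 38.5% of mutant and 32.4% of control macrophages, at median depths of 4161 and 2690 UMIs, and in 0.741% of mutant red cells and none of 112 control red cells, which allows up to 2.68%. Mesenchymal cells had 94.4 CPM in the mutant and 93.4 in the control, and epicardial cells 62.6 and 111. Cardiomyocytes were low, with 10.8 and 12.47 in atrial cells and 4.42 and 4.11 in ventricular cells.

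Igfbp5, the most conserved of the family, was highest in the gated epicardium and, among cardiomyocytes, in the atria. Epicardial cells had 275 CPM in the mutant (247 to 304) and 350 in the control (309 to 394). Atrial cells had 113 in the mutant (104 to 123) and 131 in the control (123 to 140). Ventricular cells lay well below them, at 22.8 in the mutant (20.7 to 24.9) and 24.3 in the control (22.4 to 26.4). The chamber difference thus exceeded counting error in both libraries. Endothelial cells had 172 in the mutant and 82.6 in the control, and mesenchymal cells 32.5 and 59.3. Over the next cell type the epicardial lead was 1.56-fold in the mutant and 2.55-fold in the control, after the added 10 CPM. With joint clusters, mutant epicardial cells had 156 CPM and endothelial cells 168, and those of the control had 124 and 77.0. With equal weight per cell, epicardial and atrial levels were 163 and 142 CPM in the mutant, and 248 and 162 in the control.

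Igfbp7, a matrix-associated protein that binds IGFs with low affinity, followed Igf1 in its order of cell types at the top. Mesenchymal cells had 449 CPM in the mutant (427 to 472) and 353 in the control (326 to 380). Endothelial cells had 190 in the mutant and 230 in the control, but these came from few cells: 49 mutant and 32 control endothelial cells held a UMI, and 1 control cell held 48.1% of the control UMIs. Epicardial cells had 80.0 in the mutant and 82.9 in the control, ventricular cells 16.4 and 27.7, and atrial cells 6.12 and 4.87. In the endothelium, the split by Npr3 ran in opposite directions in the libraries. Mutant cells with Npr3 had 58.4 CPM and those without had 255, whereas the control had 409 and 158. Of the 135 control UMIs in cells with Npr3, 94.1% lay in 1 cell.

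Within the ventricle, the summed levels of Igfbp5 and Igfbp7 were lower where Nppa, the natriuretic peptide gene of trabecular and atrial muscle, was high. Igfbp5 read 15.1 CPM in Nppa-high cells and 27.6 in Nppa-low cells of the mutant, and 13.6 and 34.2 in those of the control. The log2 ratio of high over low was -0.59 in the mutant and -0.91 in the control. Igfbp7 read 8.99 and 24.0 in the mutant and 10.7 and 40.9 in the control, with log2 ratios of -0.84 and -1.30. Of 3531 genes tested, 0.538% were past 1.5-fold lower in both libraries and 0.595% higher. Both genes met the minimum through the Nppa-low cells alone in both libraries, so their count beside this background carries no weight. The mutant value of Igfbp5 lies just past the limit, and 1 Nppa-low cell held 14.6% of its 274 UMIs. The share of cells with an Igfbp5 UMI was not lower where Nppa was high: it was 18.0% in high and 16.6% in low cells of the mutant, and 16.8% and 14.0% in those of the control. For Igfbp7 the shares were 11.8% and 13.6% in the mutant and 10.0% and 16.2% in the control. Igf1r, Igf2r and Igfbp2 differed by less than 1.5-fold between these subsets, with log2 ratios between -0.09 and 0.31 over both libraries. The Nppa-high cells were somewhat deeper, with medians of 13220 and 11140 UMIs in high and low cells of the mutant and 13670 and 9852 in those of the control.

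Between genotypes, most pairs of member and cell type differed by less than 1.5-fold, although 5 of the 8 members were past it in at least 1 cell type. Of 48 pairs of member and cell type, 31 reached 20 CPM in 1 library and 30 UMIs over both, and 6 of these were past 1.5-fold. Lower in the mutant were Igfbp3 and Igfbp4 in epicardial cells and Igfbp5 in mesenchymal cells. Higher in the mutant were Igf2r, Igfbp5 and Igfbp2 in endothelial cells. No member passed in ventricular cells, where 0.439% of 3646 genes were higher and 0.302% lower, in atrial cells, where 0.752% of 3988 genes were higher and 0.677% lower, or in macrophages, where 12% of 2410 genes were higher and 9.83% lower and 1 member could be compared.

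**Figure D3:**
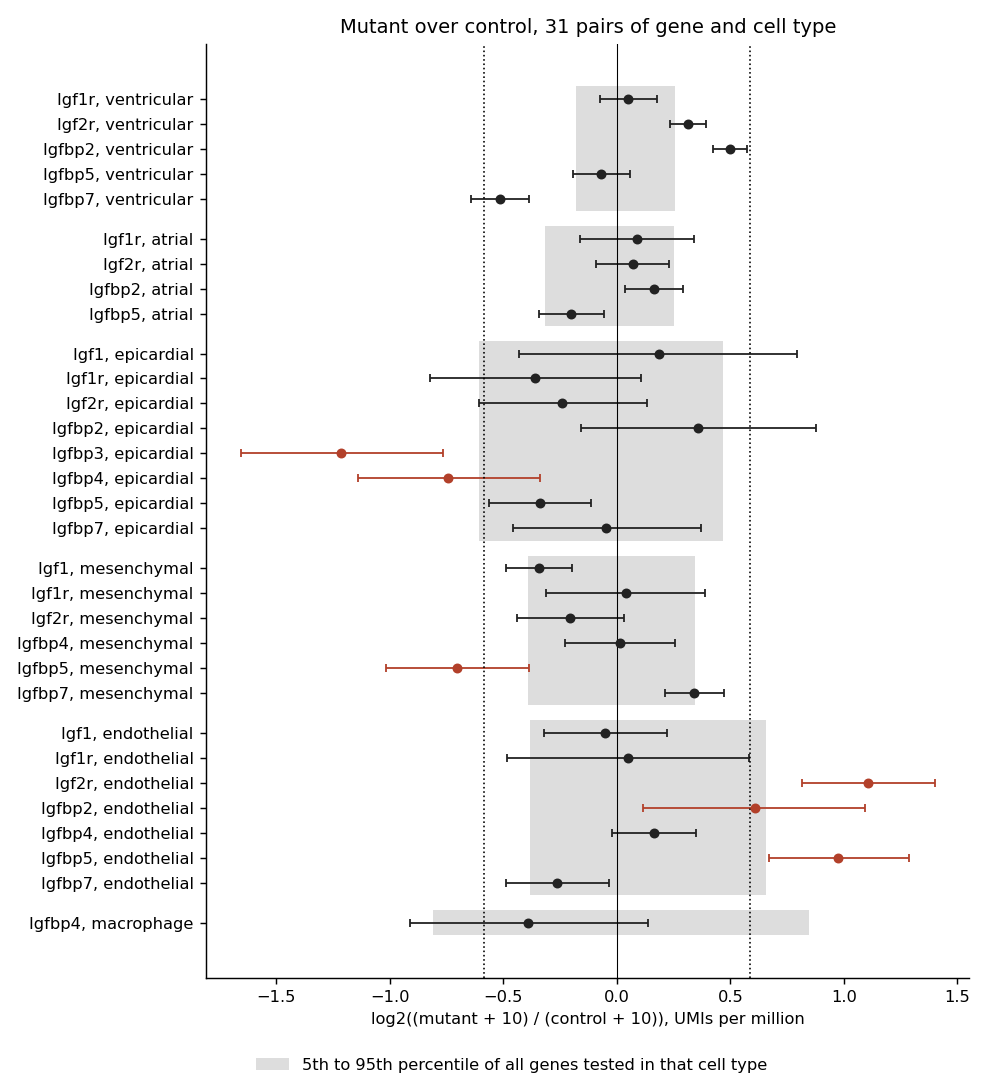
Log2 ratio of mutant over control (after adding 10 CPM) for the 31 pairs that met the minimums, with exact 95% intervals for counting error. Grey bands span the 5th to 95th percentile of all genes tested in that cell type, dotted lines mark 1.5-fold and red points are the 6 pairs past it; Igfbp3 in epicardial cells lies lowest and Igf2r in endothelial cells highest.

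By summed counts, Igfbp3 showed the largest of these differences in the epicardium. On 51 UMIs in the mutant and 79 in the control, its log2 ratio was -1.21 (-1.66 to -0.77), and the plain ratio was 0.376 (0.259 to 0.541). Igfbp4 followed at -0.74 (-1.14 to -0.34), on 83 and 86 UMIs, and was seen in 14.2% of mutant and 26.7% of control epicardial cells. For Igfbp3, 5 cells held 39.2% of the mutant and 46.8% of the control UMIs. With equal weight per cell the order reversed, with log2 ratios of -0.69 for Igfbp3 and -0.82 for Igfbp4. Igfbp5 was also lower by count, at -0.34 (-0.56 to -0.11), but by less than 1.5-fold, and 5 cells held 59.9% of its mutant UMIs. Among 5111 genes tested in epicardial cells, 5.63% were past 1.5-fold lower and 2.56% higher, and 2 of 8 members lay among the lower ones. The median log2 ratio was -0.29 over the 8 members and -0.04 over all genes. Markers of the gate itself moved with these genes: keratins and uroplakins summed to 2444 CPM in the mutant and 3053 in the control, and 7 of the 8 were lower in the mutant. Their part in the result was not tested. With cells taken from joint clusters in place of the gate, the log2 ratio was -0.12 for Igfbp3, 0.01 for Igfbp4 and 0.31 for Igfbp5. Igfbp5 was also at 0.01 with gates at 2 times the share of marker UMIs and at -0.81 with thinned cells, so its direction here depends on which cells are counted and how. Those clusters held 738 mutant and 476 control cells, of which 331 and 186 were in the gate, and their keratins and uroplakins summed to 1314 and 965 CPM.

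In mesenchymal cells Igfbp5 had 114 UMIs in the mutant and 113 in the control, from 1237 and 741 cells. Its log2 ratio was -0.70 (-1.02 to -0.39). Here 1.48% of 4852 genes were past 1.5-fold lower and 0.866% higher, and Igfbp5 was the single one past it of the 6 members that could be compared. In the Tcf21 and the cushion subsets taken alone, its log2 ratio was -0.33 and -0.36, and both intervals held 0. Markers of mural cells, the contractile cells around vessels, summed to 16.5 CPM in mutant and 35.7 in control mesenchymal cells, with 3 of 5 lower in the mutant and Myh11 at 0 in the control. Their part in the result was not tested. Joint clusters gave 0.02, from 56.3 CPM in the mutant and 55.3 in the control. Igf1 and Igfbp7, the members with the highest counts in these cells, both differed by less than 1.5-fold, Igf1 at -0.34 (-0.49 to -0.20) and Igfbp7 at 0.34 (0.21 to 0.47). The Igf1 value was -0.04 with equal weight per cell, 0.02 with thinned cells and -0.01 without the deepest 5% of cells. In the cushion subset alone it was 0.03, and the share of cells with a UMI was slightly higher in the mutant, as given above.

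The endothelial differences were in the other direction. Igf2r had 368 UMIs in the mutant and 106 in the control, with a log2 ratio of 1.10 (0.81 to 1.40). Igfbp5 had 302 and 95 UMIs, with a ratio of 0.98 (0.67 to 1.29). Igfbp2 had 72 and 27 UMIs, with a ratio of 0.61 (0.11 to 1.09). In this cell type 7.16% of 4900 genes were past 1.5-fold higher and 1.39% lower, so that 3 of 7 members stand beside a background tilted the same way.

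Both of the larger endothelial differences rested on few cells. Of the mutant UMIs, 5 cells held 46.7% for Igf2r and 48.3% for Igfbp5. The share of endothelial cells with a UMI was 31.1% in the mutant and 24.2% in the control for Igf2r, and 21.9% and 16.7% for Igfbp5. When each cell was given equal weight, the levels were 129 CPM in the mutant and 105 in the control for Igf2r, and 107 and 103 for Igfbp5. The log2 ratios were then 0.27 and 0.05. Mutant endothelial cells also held more UMIs of other cell types: mesenchymal markers summed to 635 CPM in the mutant and 341 in the control, with 11 of 15 higher in the mutant and Prrx1 at 0 in the control. All 8 epicardial keratins and uroplakins were higher, with sums of 33.1 and 6.96, and Upk3b, Krt7, Msln and Lrrn4 were at 0 in the control. The part of these markers in the result was not tested. In the endothelial cells without Npr3, the log2 ratio was 0.83 for Igf2r, 1.25 for Igfbp5, 0.66 for Igfbp7 and 0.25 for Igfbp2. For Igfbp5 in these cells, 5 mutant cells held 66.1% of the UMIs, and equal weight gave 102 CPM in the mutant and 87.7 in the control. In the cells with Npr3, Igf2r stood at 1.21, but with equal weight per cell its levels were 248 CPM in the mutant and 253 in the control. There Igfbp2 was at 1.65 (0.58 to 2.42), on 29 and 3 UMIs, Igfbp4 at 0.79, Igfbp5 at 0.36 and Igfbp7, with nearly all its control UMIs in 1 cell, at -2.61.

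**Figure D4:**
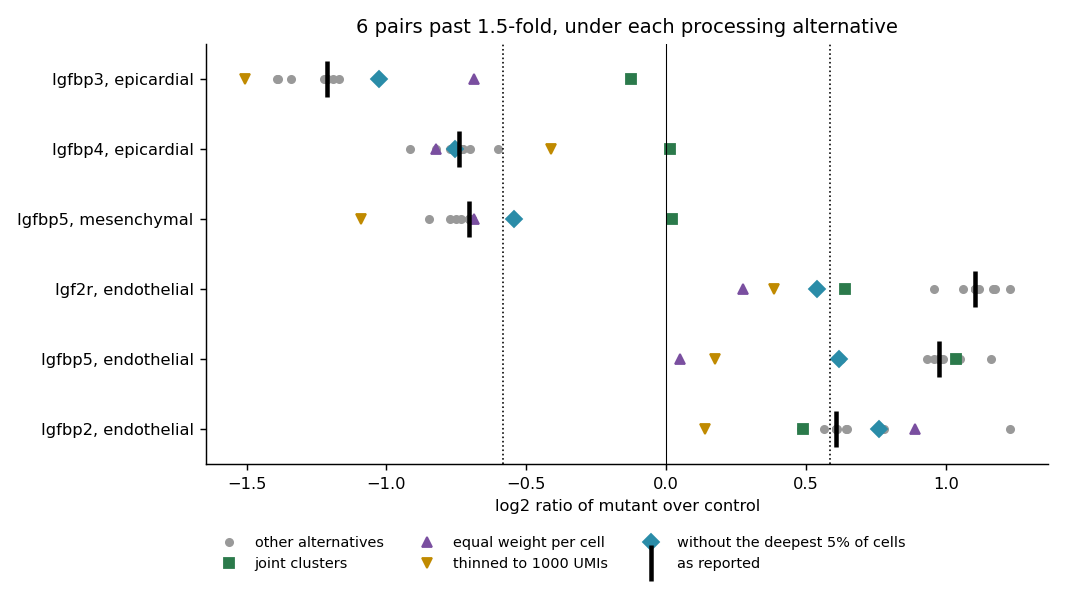
Log2 ratio of mutant over control for the 6 pairs past 1.5-fold (black bars) and the same ratio under each of the 14 processing alternatives (other symbols, named in the legend). Dotted lines mark 1.5-fold. Alternatives that change only the minimums for a pair or the limit of 1.5-fold cannot move a ratio, so their points lie on the reported value. The epicardial and mesenchymal pairs move to about 0 with joint clusters, and the Igf2r and Igfbp5 endothelial pairs move towards 0 with equal weight per cell.

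Cardiomyocytes, the deepest of the 6 cell types by median UMIs, showed smaller differences with narrow intervals. In ventricular cells Igfbp2 was higher in the mutant, with 2680 UMIs against 2131 in the control and a log2 ratio of 0.50 (0.42 to 0.57). Igf2r was also higher there, at 0.31 (0.23 to 0.39). Igfbp7 was lower, at -0.51 (-0.64 to -0.39), with 333 UMIs in the mutant and 652 in the control. None of the 3 reached 1.5-fold after the added 10 CPM, while each lay outside the range of -0.18 to 0.25 that holds the middle of all ventricular genes between their 5th and 95th percentiles. The added CPM weigh on Igfbp7, whose plain ratio of 0.592 was past 1.5-fold lower and whose log2 ratio with 1 CPM added was -0.72. With equal weight per cell it was -0.13, and with every cell thinned to 1000 UMIs -0.04. In atrial cells the 4 members compared lay between -0.20 for Igfbp5 and 0.16 for Igfbp2. Atrial Igfbp5 was past 1.5-fold lower, at -0.68, without the 6% of cells with the highest doublet score, and stood at -0.58 with joint clusters. Atrial Igfbp2 reached 0.55 with thinned cells. Embryo, batch and genotype cannot be told apart in these ratios, because each genotype is 1 library.

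The remaining genes of the pathway were taken from a list of 43, of which 16 reached 20 CPM in 1 cell type of both libraries. Among ligands, Igf2 had 80.4 CPM in mutant and 69.3 in control mesenchymal cells, 74.1 and 64.4 in endothelial cells, and 51.3 and 67.4 in epicardial cells. Igf2 shares 16048 bases of its strand with the gene model Gm49394, so its counts are uncertain. Igfbp6, a binding protein with a preference for IGF2, was epicardial like Igfbp3, at 54.3 CPM in the mutant and 51.8 in the control, and no other cell type exceeded 2.28. Htra1, a serine protease that cleaves binding proteins, was highest in mesenchymal cells, at 50.2 in the mutant and 42.0 in the control.

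Among the adaptors, Grb10, which restrains the insulin and IGF1 receptors, was highest in epicardial cells, at 515 CPM in the mutant and 514 in the control. Grb14, its relative, was an atrial transcript at 78.7 in the mutant and 75.8 in the control. In the signalling branch 6 genes were measured. Rheb, the GTPase that activates mTOR, read 293 CPM in mutant and 297 in control ventricular cells. Gsk3b, a kinase inhibited by AKT, read 116 and 122 in mesenchymal cells, and Akt1 itself 82.1 and 70.5 in endothelial cells. All 3 Igf2bp genes, which encode binders of Igf2 and other mRNAs, were measured. Between genotypes, none of the pathway genes compared was past 1.5-fold in ventricular (8 genes), atrial (9), epicardial (16), mesenchymal (12) or endothelial cells (13). Of 4 in macrophages, the adaptor Grb2 was lower in the mutant, at 45.2 CPM against 86.0 in the control. Of all 2410 genes compared in macrophages, 9.83% were past 1.5-fold lower and 12% higher. All 13 macrophage markers were lower in mutant macrophages as well, with sums of 14730 and 22500 CPM, and their part in the Grb2 value was not tested.

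Over the 12 points given by 6 cell types in 2 libraries, the members' profiles resembled each other in 2 ways. Igf1 ran with Igfbp7 (Pearson r of log2 levels 0.79) and Igfbp4 (0.77), and Igfbp5 with Igf2r (0.77), Igf1r (0.76) and Igfbp3 (0.73). Igfbp2 and Igfbp4 were the most opposed pair (-0.76). The points share libraries and depth, and the coefficients are descriptions. Igf2r was at 0 CPM in both macrophage points and at 210 in mutant endothelial cells, and its other points lay between 82.5 and 114. Igf1r and Igfbp5 were also lowest in macrophages. How far the macrophage points carry these coefficients was not tested. Across all genes with at least 50 CPM in 1 group that mark no cell type, the profile most like that of Igfbp3 was Nbl1 (0.98), followed by Pkhd1l1 (0.97) and Golm1 (0.97), which were all highest in epicardial cells. Igfbp5 was most like Spon1 (0.98), Tmem176b (0.97) and Arl2 (0.94). The nearest profiles to Igf1 were Ccdc174 (0.97), Emilin1 (0.97) and Dnajc8 (0.96), and to Igfbp7 Mxra7 (0.98), Trp53i13 (0.98) and Polr2g (0.97). Igfbp4 was nearest to Tnfrsf1a (0.99), Ufm1 (0.99) and Shisa5 (0.98), and Igfbp2 to Bex4, Hspb1 and D10Jhu81e (0.97, 0.97 and 0.96). Igf1r had Zcchc3, Tead1 and Plp2 (0.97, 0.97 and 0.96) beside it, and Igf2r Dynll1, Mtch1 and Txndc12 (0.98, 0.97 and 0.96).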

How the data were processed

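The authors deposited counts of UMIs per gene and barcode. Per the file headers, Cell Ranger 3.0.2 made them; Seurat, with no version, is another tool in the submitters' processing notes. Per the labels, the kit was Chromium v2. For the genome build and annotation of the counting, the entry is: not given in the sources used here. Of the gene identifiers, 99.86% matched GENCODE M21 (GRCm38), which gave positions. The control matrix listed 6794880 barcodes and was unfiltered, whereas the mutant matrix listed 7181 barcodes of at least 500 UMIs. The control's barcode list has the size of a list for a later kit, so the chemistry is uncertain.

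Barcodes with at least 1000 UMIs, 500 genes and at most 20% mitochondrial UMIs were kept. Each cell was gated on the UMIs of marker lists per 10000: at least 100 for cardiomyocytes, 10 for epicardial keratins and uroplakins, 15 for mesenchymal, 20 for endothelial and 30 for macrophage markers. Myl2 and Myl3 (at least 60 for ventricular cells and under 20 for atrial cells) and atrial markers split the chambers. Nppa-high cells had at least 8 and Nppa-low cells under 1. Tcf21 cells had a UMI of Tcf21 and none of the cushion markers. Cushion cells had more than 1 UMI of the cushion markers and none of Tcf21. Cells past the gates of a pair of lineages, 181 in the mutant and 201 in the control, were removed as likely doublets, and 780 and 509 cells stayed unassigned. The gates were set with the data at hand. In alternatives, 2000 variable genes, 30 principal components and 15 neighbours gave 21 joint Leiden clusters, and doublets were scored by simulated doublets, with the top 6% removed.

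Levels are UMIs per 1000000 (CPM) and have exact Poisson intervals, shares exact Clopper-Pearson intervals and ratios exact conditional binomial intervals, each at 95%. For 0 UMIs, the limit was set at 3 UMIs. UMIs of 1 cell are not independent, so these intervals are too narrow for a difference between animals. A pair was called past 1.5-fold on log2((mutant + 10)/(control + 10)) with at least 20 CPM in 1 library and 30 UMIs over both. With 1 library per genotype no p-value was computed. The code was tested on simulated Poisson data. Named genes were all 8 members, pathway genes that reached 20 CPM in 1 cell type of both libraries (counted, with up to 3 per role named), and the 3 genes with the profile most like each member's. The members, gene lists and gates were chosen with earlier results of these data known. Upstream stretches are RefSeq's (GRCm38.p6). Python 3.11.15, numpy 2.4.6, scipy 1.17.1, scikit-learn 1.9.0, leidenalg 0.10.2 and matplotlib 3.10.9 were used. Protein sequences were not used here.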

Additional observations from a re-analysis of the deposited data

Results flagged for a closer look

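Igfbp5 differed between genotypes in opposite directions in a pair of cell types, with a log2 ratio of mutant over control of 0.975 in endothelial cells and -0.705 in mesenchymal cells. The difference between the cell types was not tested, because each genotype is 1 library. The endothelial value was 0.05 with equal weight per cell, and the mesenchymal value was 0.02 with joint clusters.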

How the results depend on the processing

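The count of 6 pairs past 1.5-fold lay between 4 and 8 under 12 of the 14 alternatives. It was 2 pairs, both lower in the mutant, with every cell thinned to 1000 UMIs, where 21 pairs could be compared, and 2 pairs with 2-fold as the limit. The pairs behind these counts changed. Joint clusters gave 2 pairs lower in the mutant, and neither was among the 3 lower pairs reported above. Of 10 alternatives that kept the rule for calling a pair, epicardial Igfbp3 stayed past 1.5-fold in 9 and Igfbp4 in 8. Mesenchymal Igfbp5 did so in 8. In endothelial cells Igf2r did so in 7, Igfbp5 in 8 and Igfbp2 in 6. Members with the same highest cell type in both libraries numbered 6 to 8. Members with a lead of at least 2-fold in both libraries numbered 2 in place of 1 with gates at 2 times the share of marker UMIs, and also 2 without the deepest 5% of cells, an alternative added after seeing the data. With joint clusters the ratio of Igfbp4 in epicardial cells turned to 0.014 and that of Igfbp5 in mesenchymal cells to 0.020; the cause was not tested, and these clusters held other cells than the gates. Igf2r in endothelial cells ranged from 0.27 to 1.23, Igfbp5 from 0.05 to 1.16 and Igfbp2 from 0.14 to 1.23, and Igfbp3 in epicardial cells from -1.51 to -0.12. Macrophages were few, 78 in the mutant and 74 in the control, and 1 member could be compared there. No paired analysis was possible because there is 1 library per genotype.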
